A study of Mus musculus with 23 samples.

Results

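Foxd1, a forkhead transcription factor, was followed together with 8 other developmental genes in RNA from astrocyte-enriched cells of the mouse cortex. The set holds the transcription factors Foxd1, Foxc1, Foxc2, Tfap2a, Tbx18 and Twist1, the secreted ligand Wnt16, and Frem1 and Frem2, which encode large matrix proteins of the Fraser complex. They were taken by symbol from a count table of 24411 genes, and all 9 were present. They were selected on measured values, since several had genotype differences of opposite sign with a control diet and with a diet holding sulforaphane (SFN). Genotype differences, SFN differences within a genotype and their interaction are therefore given as descriptions, with no p-value. Astrocytes were isolated from the cortex of male mice at postnatal day 70 with magnetic beads against the astrocyte antigen ACSA-2, and each of the 23 libraries came from 1 mouse. All mice carried 2 floxed copies of Aldh7a1, which encodes an aldehyde dehydrogenase of lysine breakdown, and all received 4-hydroxytamoxifen at postnatal days 3 to 4. The cKOAstro mice also carried 1 Slc1a3-CreER allele, a tamoxifen-inducible Cre recombinase driven from the gene of an astrocyte glutamate transporter, and the ConAstro mice did not. From postnatal day 21 mice ate a control diet or a diet with SFN, an activator of the antioxidant transcription factor NRF2. There were 4 ConAstro and 7 cKOAstro libraries from the control diet, and SFN feeding gave 5 more ConAstro and 7 more cKOAstro libraries. Slc1a3-CreER is active in astrocytes and related glia, and the ConAstro mice lack both the recombinase and the Slc1a3 allele that carries it.

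In the developing head, Foxc1, Foxc2, Twist1 and Tfap2a act in neural crest and in the mesenchyme that forms the skull and the meninges, the membranes around the brain. Foxc1 is required for the meninges to form, and its loss changes the growth of the cortex beneath. Foxd1 marks the stromal progenitors of the kidney, which give rise to its pericytes, the contractile cells wrapped around capillaries. Foxc1 is also active in brain pericytes, and Tbx18 marks pericytes and vascular smooth muscle, which are together called mural cells. Frem1 and Frem2 join Fras1 in a complex that holds epithelium to the tissue below it. None of these genes is a usual marker of astrocytes, and in a bulk library fewer cells of a type and less RNA per cell cannot be told apart.

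The promoters of 4 of the transcription factor genes and of Wnt16 are shown because the study turns on a diet that acts through a transcription factor. Each is the 250 bases before the RefSeq start site in the build GRCm38.p6, written 5′ to 3′ on the strand of the gene, with motif matches on either strand in capitals.
Foxd1 (chr13:98353995-98354244, plus strand): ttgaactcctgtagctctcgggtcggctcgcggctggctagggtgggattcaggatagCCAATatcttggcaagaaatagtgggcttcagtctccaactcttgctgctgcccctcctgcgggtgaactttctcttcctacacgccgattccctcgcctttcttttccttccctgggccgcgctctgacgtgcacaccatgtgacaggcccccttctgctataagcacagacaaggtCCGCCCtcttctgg
Foxc1 (chr13:31806396-31806645, plus strand): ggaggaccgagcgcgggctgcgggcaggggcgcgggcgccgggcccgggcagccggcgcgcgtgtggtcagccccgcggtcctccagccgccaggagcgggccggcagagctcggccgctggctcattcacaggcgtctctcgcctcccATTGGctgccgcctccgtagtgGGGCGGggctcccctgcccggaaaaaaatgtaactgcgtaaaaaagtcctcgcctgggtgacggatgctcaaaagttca
Tbx18 (chr9:87731261-87731510, minus strand): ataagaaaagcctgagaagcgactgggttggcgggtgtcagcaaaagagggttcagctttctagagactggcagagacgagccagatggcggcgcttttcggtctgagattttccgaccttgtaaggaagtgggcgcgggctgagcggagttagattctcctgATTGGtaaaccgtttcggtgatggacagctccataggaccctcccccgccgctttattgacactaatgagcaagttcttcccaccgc
Twist1 (chr12:33957421-33957670, plus strand): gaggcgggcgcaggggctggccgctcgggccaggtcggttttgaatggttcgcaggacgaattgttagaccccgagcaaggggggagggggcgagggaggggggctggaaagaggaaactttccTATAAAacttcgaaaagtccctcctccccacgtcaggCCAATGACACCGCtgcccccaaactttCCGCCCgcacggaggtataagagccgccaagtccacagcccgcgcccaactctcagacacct
Wnt16 (chr6:22287977-22288226, plus strand): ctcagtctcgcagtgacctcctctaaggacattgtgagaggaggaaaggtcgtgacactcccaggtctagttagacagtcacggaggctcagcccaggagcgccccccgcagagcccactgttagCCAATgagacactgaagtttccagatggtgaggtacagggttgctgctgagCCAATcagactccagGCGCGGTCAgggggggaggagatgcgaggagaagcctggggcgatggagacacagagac
Motifs were searched over the 250 bases before each start site. They were the CCAAT box (CCAAT), the GC box (GGGCGG), the TATA box (TATAAA), a forkhead core (TGTTTAC) and the core of the antioxidant response element that NRF2 binds (TGACNNNGC). A CCAAT box was found once in Foxd1, Foxc1, Tbx18 and Twist1, 2 times in Wnt16 and in Frem2, and in no promoter of Tfap2a or Frem1. Of all 32851 promoters searched, 33.8% held one. The antioxidant response core was found once in Twist1, where it shares 1 base with the CCAAT box, and once in Wnt16, against 10.2% of promoters. Of the 2 promoters of Tfap2a, 1 also held 1 antioxidant response core, which overlaps a GC box. No forkhead core was found in the windows of the 8 genes with a promoter entry, and 3.17% of promoters held one. These are matches of letters, and no binding was measured here.

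Total counts per library lay between 46890715 and 391701247, and the 4 ConAstro libraries, at 74771451 to 84049525, were all shallower than the 7 cKOAstro libraries, at 107847897 to 391701247. Levels are given as CPM, counts scaled to a common library size after TMM normalisation, or as RPKM, CPM per kilobase of merged exons, where genes are compared with each other. The deleted gene checked the labels: Aldh7a1 lay at 207 to 220 CPM in ConAstro and at 45.9 to 77.2 CPM in cKOAstro. On the SFN diet a pair of libraries went against their labels. The library labelled SFN-fed ConAstro replicate 1 had 55.7 CPM of Aldh7a1 and 2100 CPM of Slc1a3, which lie in the cKOAstro ranges. The library labelled SFN-fed cKOAstro replicate 2 had 222 and 4436 CPM, which match ConAstro. Both were kept in their labelled groups. Values without them are also given for some of the SFN results, and where none is given these libraries were kept. Library names start with 141, 143, 145, 146, 147 or Astro, and these prefixes were unevenly spread over the groups. All 4 ConAstro libraries had the prefix 143, while cKOAstro held 141, 146 and Astro, so genotype and prefix cannot be told apart on the control diet by values within a prefix. SFN-fed ConAstro held 145, 147 and, for the library against its label alone, Astro, so its SFN difference has the same limit. SFN-fed cKOAstro held 143, 147 and Astro. What the prefixes stand for is not given in the sources used here. Markers of astrocytes were abundant, with a summed level of 10 genes between 11992 and 23289 CPM, and the 6 oligodendrocyte markers, at 20433 to 52949 CPM, were higher still.

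Compared per length over all 23 libraries, Foxc1 was the highest of the 9 genes at 3.17 ± 0.83 RPKM (mean ± SD), followed by Frem2 at 2.46 ± 0.54, Tbx18 at 1.79 ± 0.59 and Foxd1 at 1.32 ± 0.41 RPKM. Foxc1 exceeded Frem2 in 19 of 23 libraries, and Frem2 exceeded Tbx18 in all 23. The order of Tbx18 and Foxd1 held in 20 libraries, so these neighbours overlapped. Frem1 reached 0.943 ± 0.360 RPKM, Twist1 0.636 ± 0.202, Foxc2 0.370 ± 0.172 and Tfap2a 0.238 ± 0.073 RPKM. Wnt16 was close to the limit of detection at 0.0344 ± 0.0291 RPKM, with 0 to 88 reads per library, and lay below Tfap2a in all 23 libraries. All 9 genes passed the filter on low counts in each comparison.

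Foxd1 (chr13:98354242-98359305, plus strand, GRCm38) had its lowest mean in ConAstro, at 4.67 ± 0.71 CPM (SD, n = 4). The means were 7.82 ± 1.46 CPM in cKOAstro (n = 7), 8.39 ± 2.31 CPM in SFN-fed ConAstro (n = 5) and 5.48 ± 1.34 CPM in SFN-fed cKOAstro (n = 7). The 4 ConAstro libraries had 3.67, 4.67, 5.06 and 5.28 CPM of Foxd1. The 7 cKOAstro libraries ran from 5.48 to 10.4 CPM with a median of 7.69, so none reached down to ConAstro. SFN-fed ConAstro libraries had 5.72, 7.10, 7.61, 10.2 and 11.3 CPM, and the lowest of them is the library labelled SFN-fed ConAstro replicate 1. The 7 SFN-fed cKOAstro libraries ran from 3.37 to 7.42 CPM with a median of 5.45, overlapping every other group. ConAstro and cKOAstro also differed in depth without overlap, as given above, and the part of depth was not tested. In fitted values, Foxd1 was 0.74 ± 0.16 log2 units (± SE) higher in cKOAstro than in ConAstro on the control diet, while with SFN it was at -0.62 ± 0.20. Without the libraries against their labels the genotype difference with SFN was -0.70. The genotype by diet interaction of Foxd1 was -1.36 ± 0.28, and it lay between -1.47 and -1.23 with each library left out in turn. Within the prefix 143, Foxd1 was at 3.67 to 5.28 CPM in ConAstro and 4.90 to 5.85 CPM in SFN-fed cKOAstro. The value of 4.90 CPM is that of SFN-fed cKOAstro replicate 2, which goes against its label. Its other SFN-fed cKOAstro libraries were at 5.45 and 5.85 CPM, above the ConAstro range. With SFN, 147 was the only prefix that held both genotypes without a library against its label. There Foxd1 was at 7.10 and 7.61 CPM in ConAstro, and the cKOAstro library lay between them at 7.42 CPM. Among libraries named Astro, the SFN-fed ConAstro library, which goes against its label, was at 5.72 CPM. The control-diet cKOAstro libraries named Astro were at 7.68 and 10.4 CPM, above all SFN-fed cKOAstro libraries of that name. The higher SFN-fed ConAstro libraries, at 10.2 and 11.3 CPM, had the prefix 145, and the SFN-fed cKOAstro libraries named Astro were at 3.37 to 6.70 CPM.

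**Figure D1:**
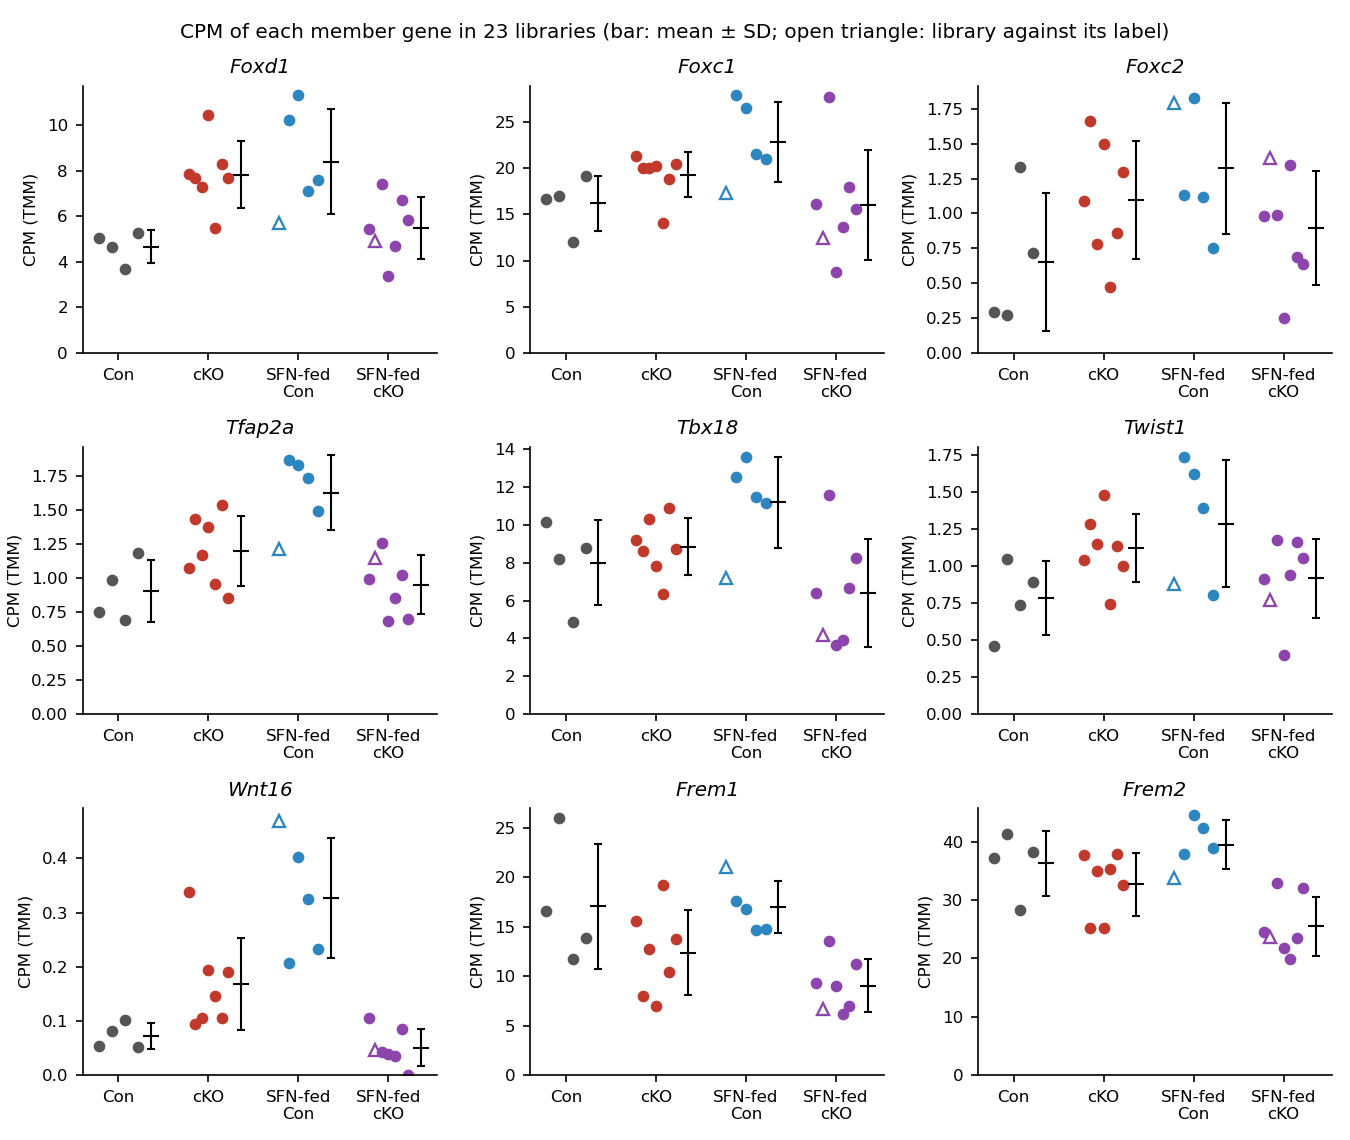
Level of each of the 9 genes (CPM, TMM-normalised, linear axes from 0) in 23 libraries by group, with the group mean ± SD as a bar and the pair of libraries that go against their labels as open triangles. ConAstro and cKOAstro do not overlap for Foxd1, and the SFN-fed groups do not overlap for Wnt16, Frem1 and Frem2.

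Foxc1 (chr13:31806633-31812476, plus strand), a forkhead factor of meningeal mesenchyme and brain pericytes, had its highest mean in SFN-fed ConAstro, as Foxd1 did, with smaller differences. Its means were 16.2 ± 2.98 CPM in ConAstro, 19.3 ± 2.43 in cKOAstro, 22.9 ± 4.34 in SFN-fed ConAstro and 16.0 ± 5.95 CPM in SFN-fed cKOAstro. ConAstro libraries had 12.1, 16.7, 17.0 and 19.1 CPM of Foxc1, and cKOAstro ran from 14.0 to 21.3 CPM with the second lowest at 18.9 CPM. SFN-fed ConAstro had 17.3, 20.96, 21.6, 26.5 and 27.9 CPM. SFN-fed cKOAstro spread from 8.76 to 27.7 CPM with a median of 15.6, the widest spread of the 4 groups. The genotype difference of Foxc1 was 0.24 ± 0.13 log2 units on the control diet, where it was 0.12 without ConAstro replicate 3, and -0.51 ± 0.22 with SFN. Foxc2 (chr8:121116171-121118895, plus strand), its close paralog, was near 1 CPM. Its ConAstro libraries split into 0.271 and 0.295 CPM against 0.716 and 1.33 CPM, and its genotype differences were 0.73 ± 0.46 and -0.56 ± 0.36 log2 units without and with SFN. The first of these became 0.48 when ConAstro replicate 2 was left out and 1.35 when replicate 3 was. Foxc2 lies inside the read-through gene model Gm20388 on the same strand (chr8:119910841-124345722), so reads could be shared with it.

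Tbx18 (chr9:87702800-87731260, minus strand), a T-box factor of mural cells, overlapped between genotypes on both diets. Its ConAstro libraries had 4.89, 8.21, 8.79 and 10.2 CPM and cKOAstro ran from 6.37 to 10.9 CPM. SFN-fed ConAstro had 7.20, 11.2, 11.5, 12.5 and 13.6 CPM, with the library labelled SFN-fed ConAstro replicate 1 again at the bottom. SFN-fed cKOAstro ran from 3.67 to 11.6 CPM with a median of 6.40. The genotype differences of Tbx18 were 0.14 ± 0.19 and -0.81 ± 0.28 log2 units with the control and the SFN diet. With each library left out in turn the control diet value lay between -0.04, without ConAstro replicate 3, and 0.27. D030062O11Rik overlaps the start of Tbx18 on the opposite strand and the counting strand is not known.

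Twist1 (chr12:33957671-33959829, plus strand) is a basic helix-loop-helix factor of cranial mesenchyme, and Tfap2a (chr13:40715302-40738376, minus strand) an AP-2 factor of neural crest and surface ectoderm. Both were near 1 CPM. Twist1 had 0.457, 0.739, 0.894 and 1.04 CPM in ConAstro and 0.743 to 1.48 CPM in cKOAstro, with overlap. It had 0.805, 0.875, 1.39, 1.62 and 1.74 CPM in SFN-fed ConAstro and 0.396 to 1.18 CPM in SFN-fed cKOAstro. Tfap2a had groups that did not overlap. Its ConAstro libraries had 0.694, 0.752, 0.990 and 1.19 CPM of Tfap2a, all below the SFN-fed ConAstro libraries at 1.22, 1.49, 1.74, 1.83 and 1.87 CPM. SFN-fed cKOAstro ran from 0.684 to 1.26 CPM, and its overlap with SFN-fed ConAstro rested on the library labelled SFN-fed ConAstro replicate 1. The genotype difference of Tfap2a was 0.40 ± 0.21 log2 units on the control diet and -0.78 ± 0.19 with SFN, or -0.91 without the libraries against their labels. For Twist1 the same values were 0.51 ± 0.24, -0.50 ± 0.27 and -0.57, and the first was 0.32 without ConAstro replicate 1. Antisense gene models lie across Tfap2a, and the only one in the count table, Gm26688, had 178 reads in all 23 libraries.

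Wnt16 (chr6:22288227-22298522, plus strand), a WNT ligand, had the fewest reads of the 9 genes and the largest fitted values for genotype, for SFN within a genotype and for their interaction. ConAstro libraries held 4, 4, 6 and 9 reads of Wnt16, which is 0.0511 to 0.102 CPM, and the deeper cKOAstro libraries held 24 to 58 reads, or 0.0949 to 0.337 CPM. SFN-fed ConAstro libraries held 17, 18, 22, 26 and 88 reads, or 0.206 to 0.470 CPM. SFN-fed cKOAstro libraries held 0 to 12 reads, or 0 to 0.105 CPM, so the SFN-fed groups did not overlap. The fitted genotype difference of Wnt16 was 1.16 ± 0.45 log2 units on the control diet and -2.64 ± 0.46 with SFN, or -2.47 without the libraries against their labels. The library labelled SFN-fed ConAstro replicate 1, whose Aldh7a1 level is that of cKOAstro, had the highest Wnt16 level of all, 0.470 CPM from 22 reads. At these counts the values, fitted differences included, carry counting error on top of the spread between mice. With 0 reads in SFN-fed cKOAstro replicate 7, its log2 CPM depends on the prior count.

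Frem1 (chr4:82897920-83052339, minus strand) and Frem2 (chr3:53513938-53657355, minus strand) were the members with fitted cKOAstro values below ConAstro on both diets. Frem2 had 28.3, 37.2, 38.3 and 41.3 CPM in ConAstro and 25.2 to 37.8 CPM in cKOAstro, with broad overlap. SFN-fed ConAstro had 33.8, 37.9, 38.9, 42.4 and 44.5 CPM of Frem2, all above SFN-fed cKOAstro at 19.9 to 32.9 CPM. The genotype difference of Frem2 was -0.16 ± 0.14 log2 units on the control diet and -0.63 ± 0.13 with SFN, or -0.67 without the libraries against their labels. On the control diet the difference of Frem2 was -0.01 among numbered libraries alone, and it became -0.26 when ConAstro replicate 3 was left out and -0.09 when replicate 2 was. Leaving out either Astro-named cKOAstro library, replicate 2 or 4, gave -0.10. Frem1 had 11.7, 13.9, 16.6 and 26.0 CPM in ConAstro and 6.96 to 19.2 CPM in cKOAstro. SFN-fed ConAstro had 14.7, 14.8, 16.8, 17.6 and 21.03 CPM of Frem1 and SFN-fed cKOAstro 6.20 to 13.6 CPM, again without overlap. The genotype difference of Frem1 was -0.46 ± 0.28 log2 units on the control diet, or -0.24 among numbered libraries alone and -0.19 without ConAstro replicate 2, and -0.91 ± 0.19 on the SFN diet, or -0.76 without the libraries against their labels.

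**Figure D2:**
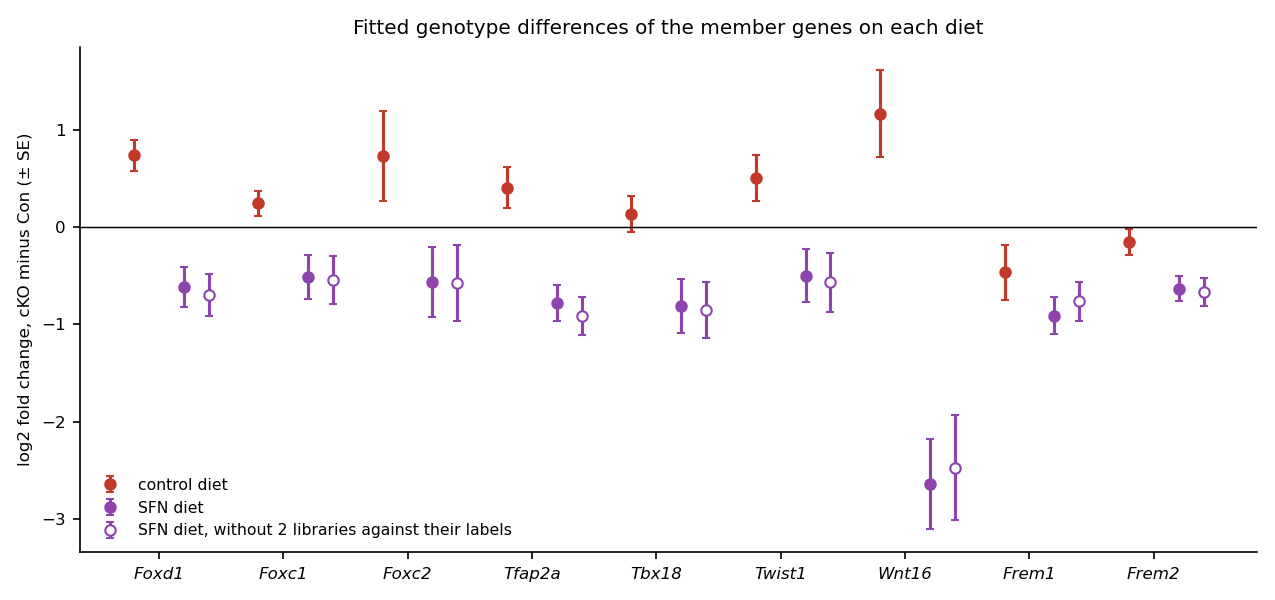
Fitted log2 fold change of cKOAstro over ConAstro (± SE) for each gene without SFN (red) and with SFN (purple), with open symbols for the SFN diet without the pair of libraries that go against their labels. 7 genes are above 0 on the control diet and all 9 are below 0 on the SFN diet.

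Of the 9 genes, 7 were above 0 on the control diet and below 0 with SFN, against 15.5% of all genes tested on both diets. This pattern entered the choice of the genes and is not a result about them. The median genotype difference was 0.40 log2 units with the control diet and -0.63 with SFN, while the median over all genes was -0.01 and 0.01. CPM ranges did not overlap for 1 of 9 genes on the control diet, Foxd1, against 0.494% of genes tested in either direction and 0.287% that were higher. On the SFN diet they did not overlap for 3 genes, Wnt16, Frem1 and Frem2, all lower, against 1.23% in either direction and 0.366% that were lower. Without the libraries against their labels Tfap2a joined them, against 4.82% in either direction and 1.66% that were lower. Between ConAstro and SFN-fed ConAstro 3 genes did not overlap, Foxd1, Tfap2a and Wnt16, against 1.93% in either direction and 1.01% that were higher. The SFN difference there was 0.84 ± 0.21 log2 units for Foxd1, 0.85 ± 0.21 for Tfap2a and 2.14 ± 0.39 for Wnt16. Foxc1 and Tbx18 joined them without the libraries against their labels, against 5.02% in either direction and 2.47% that were higher. Between cKOAstro and SFN-fed cKOAstro all 9 fitted values were below 0, from -1.65 ± 0.46 for Wnt16 to -0.27 ± 0.19 for Foxc1, with Foxc1 running from -0.44 to -0.16 without SFN-fed cKOAstro replicates 3 and 4, but every gene overlapped, against 0.0947% of genes that did not, or 0.106% without the library against its label. SFN-fed cKOAstro set against ConAstro gave a median of -0.02 log2 units, with Foxd1 at 0.23 ± 0.20 (0.12 without ConAstro replicate 3 and 0.14 without SFN-fed cKOAstro replicate 3), Frem2 at -0.51 ± 0.14 and Frem1 at -0.92 ± 0.25. These comparisons share groups with each other and are not separate evidence.

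With the library name prefix as a term in 1 fit of all 4 groups, an alternative added after the data were seen, the genotype differences with SFN of 5 of the 6 transcription factors were closer to 0. Foxd1 was at -0.11 ± 0.22 log2 units between genotypes with SFN, Foxc1 at -0.01 ± 0.23, Twist1 at 0.01 ± 0.35, Tbx18 at -0.30 ± 0.28 and Tfap2a at -0.44 ± 0.24. Foxc2 was at -0.62 ± 0.58. Wnt16 was at -2.94 ± 0.65, Frem1 at -0.86 ± 0.28 and Frem2 at -0.48 ± 0.13. When the libraries against their labels were also left out, Foxd1 was at -0.01 ± 0.32 and Frem1 at -0.13, while Wnt16 was at -2.73 ± 1.14 and Frem2 at -0.32 ± 0.19. On the control diet, where the fit reaches the genotype difference only through the SFN-fed groups, Foxd1 was at 1.06 ± 0.30 and Frem1 at -1.08 ± 0.43. The interaction of Foxd1 was -1.17 ± 0.41 and that of Wnt16 -3.75 ± 1.29. The SFN difference of Foxd1 was 0.32 ± 0.29 in ConAstro and -0.85 ± 0.23 in cKOAstro. In the prefix 147, Wnt16 was at 0.234 and 0.326 CPM in SFN-fed ConAstro and 0.042 CPM in the 1 SFN-fed cKOAstro library. Frem2 was at 38.9 and 42.4 against 32.9 CPM, Frem1 at 14.7 and 14.8 against 13.6, and Tfap2a at 1.49 and 1.74 against 1.26. That cKOAstro library was higher for Foxc1, at 27.7 against 20.96 and 21.6 CPM, and for Tbx18, at 11.6 against 11.2 and 11.5. For Foxd1, Foxc2 and Twist1 it lay between the ConAstro values.

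Mural and fibroblast markers had their lowest mean in SFN-fed cKOAstro. The summed level of 10 mural markers, led by Vtn, Pdgfrb, Notch3 and Rgs5, was 1218 to 1847 CPM in ConAstro and 1488 to 2105 CPM in cKOAstro. It was 1539 to 2387 CPM in SFN-fed ConAstro and 857 to 2127 CPM in SFN-fed cKOAstro. All 10 mural markers were counted in every library, and their median genotype difference was 0.20 log2 units with the control diet and -0.45 with SFN. The summed level of 14 fibroblast markers was 332 to 355 CPM in ConAstro and 306 to 406 CPM in cKOAstro. With SFN it was 339 to 442 CPM in ConAstro and 234 to 393 CPM in cKOAstro. The median genotype difference of these markers was 0.06 log2 units on the control diet and -0.65 with SFN. Markers of the arachnoid barrier, the outer meningeal layer, were scarce, at 6.03 to 21.6 CPM summed over 6 genes. Their median genotype difference was 0.22 log2 units on the control diet and -0.61 with SFN, where 5 of the 6 were tested. Markers of other cell types differed in the same fits, none past the threshold. Fitted genotype differences were below 0 without and with SFN for all 10 endothelial markers (medians -0.43 and -0.79), all 6 choroid plexus markers (-1.40 and -1.80) and all 7 microglia markers (-0.24 and -0.55). The summed choroid plexus level in the 4 ConAstro libraries ran from 13.7 to 4345 CPM with a median of 26.1. On the control diet all 8 neuron markers (median 0.33) and all 7 motile cilium markers (0.26) were above 0. With SFN 5 of each were (medians 0.05 and 0.25). With SFN all 5 oligodendrocyte precursor markers were below 0 (median -0.52, against -0.12 without it) and all 6 oligodendrocyte markers above 0 (0.28, against a median within 0.01 of 0). Astrocyte markers had medians of 0.03 and -0.01, with 6 and 5 of 10 above 0. By prefix, the summed mural markers were at 1218 to 1847 CPM in ConAstro and 1191 to 1655 CPM in SFN-fed cKOAstro within 143. The 1191 CPM is that of SFN-fed cKOAstro replicate 2, which goes against its label, and the other libraries there were at 1383 and 1655 CPM. Within 147 they were at 1815 and 2102 CPM in SFN-fed ConAstro and higher, at 2127 CPM, in the 1 SFN-fed cKOAstro library. They were at 2142 and 2387 CPM in SFN-fed ConAstro named 145, and at 857 to 1433 CPM in SFN-fed cKOAstro named Astro. The part of these cell types and of the prefixes in the values of the 9 genes was not tested beyond the covariates given here. No gene of the mural, fibroblast and arachnoid lists passed adjusted p of 0.05 between genotypes on either diet in edgeR. Of all genes, edgeR called 4 with the control diet (651 at an unadjusted p under 0.05) and 0 with SFN (3377 unadjusted), and DESeq2 called 8 and 367. The libraries against their labels were kept in these SFN fits, and edgeR did not call the deleted gene Aldh7a1 there. The study reported Aldh7a1 and Slc1a3 as different in that comparison. A marker that did not pass between genotypes with SFN is therefore not shown to be unchanged.

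**Figure D3:**
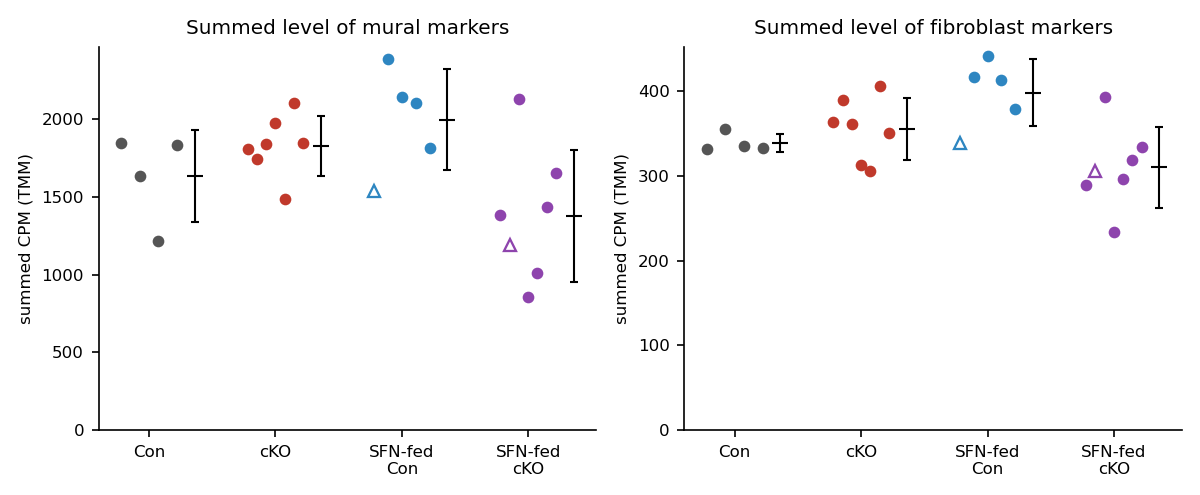
Summed CPM of the 10 mural markers (left) and the 14 fibroblast markers (right) per library by group, with mean ± SD as a bar and the libraries against their labels as open triangles. SFN-fed cKOAstro has the lowest mean on both lists and spreads from 857 to 2127 CPM on the mural list.

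With the mean log2 CPM of the mural markers as a covariate, an alternative chosen after the data were seen, the interaction of Foxd1 went from -1.36 to -0.54 and that of Foxc1 from -0.76 to 0.07. The interaction of Tbx18 went from -0.96 to -0.04 and that of Twist1 from -1.01 to -0.05, while Wnt16 went from -3.82 to -4.12. The Foxd1 difference on the control diet was 0.41 log2 units with this covariate. With the fibroblast markers as the covariate instead, the interaction was -1.06 for Foxd1 and -0.04 for Frem2. The markers were measured in the same libraries, and their part in the group differences of the 9 genes was not tested.

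Variation between mice of the same group was not used to choose the genes, and over all 23 libraries 5 of the 6 transcription factors correlated with the mural markers. Each gene's log2 CPM was set against the mean log2 CPM of each of 11 marker lists, both centred on their group means, with libraries permuted within groups in 100000 draws and p-values adjusted over all 99 pairs of gene and list. Foxc1 and the mural markers had Pearson's r of 0.92 over 23 libraries (two-sided permutation p = 1e-05, the smallest the draws can give, adjusted p = 0.000495; Spearman's rho 0.79, p = 8e-05). Foxd1 and the mural markers had r = 0.89 (permutation p = 1e-05, adjusted p = 0.000495; rho 0.86, p = 2e-05). Without the 2 libraries farthest from the median of the mural level the values were 0.83 for Foxc1 and 0.86 for Foxd1. Among the 17 numbered libraries alone r was 0.89 for Foxc1 and 0.82 for Foxd1, and the 6 libraries of the other name series, spread over 3 groups, were too few for a value of their own. Centred on group and library name prefix, an alternative added after the data were seen, 0 of the 99 pairs passed in 10000 draws (lowest adjusted p = 0.145 by permutation). Each combination of group and prefix held 1 to 4 libraries, so a pair that did not pass is not shown to be unrelated within prefixes. Centred this way, Foxc1 had r = 0.88 with the mural markers, Foxd1 0.86 and Tbx18 0.71, each with the adjusted p = 0.145 by permutation. Of the 10 combinations of group and prefix 2 held 1 library each and add nothing to these values. Tbx18 reached r = 0.82 with the mural markers (permutation p = 3e-05, adjusted p = 0.00099; rho 0.61, p = 0.00497), and 0.71 without the 2 farthest libraries.

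Twist1 and Tfap2a followed the mural markers less closely. Their r was 0.72 (permutation p = 0.00067, adjusted p = 0.00829) and 0.68 (permutation p = 0.00077, adjusted p = 0.00847), with rho of 0.70 and 0.61. Among the numbered libraries r was 0.50 for both, and neither passed the adjusted threshold there. Centred on group and prefix they stood at 0.62 and 0.46 (adjusted p = 0.645 by permutation for both). Foxc2 (r = 0.27, adjusted p = 0.484 by permutation) and Wnt16 (r = -0.14, adjusted p = 0.788 by permutation) did not pass. The fibroblast markers gave r = 0.44 for Foxd1 (adjusted p = 0.187 by permutation) and 0.58 for Foxc1 (adjusted p = 0.0885), and the difference between the mural and fibroblast values was not tested. Among the numbered libraries the fibroblast r was 0.66 for Foxd1, 0.67 for Foxc1 and 0.61 for Twist1, which had 0.37 over all 23. For the other genes there it ran from -0.16 for Wnt16 to 0.69 for Tbx18. No gene passed with the arachnoid barrier markers, where r ran from -0.17 to 0.42. The set is called by its genes here and not by a cell type. The barrier layer markers of the meninges were scarce, and the fibroblast markers passed with 2 of the 9 over all 23 libraries.

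**Figure D4:**
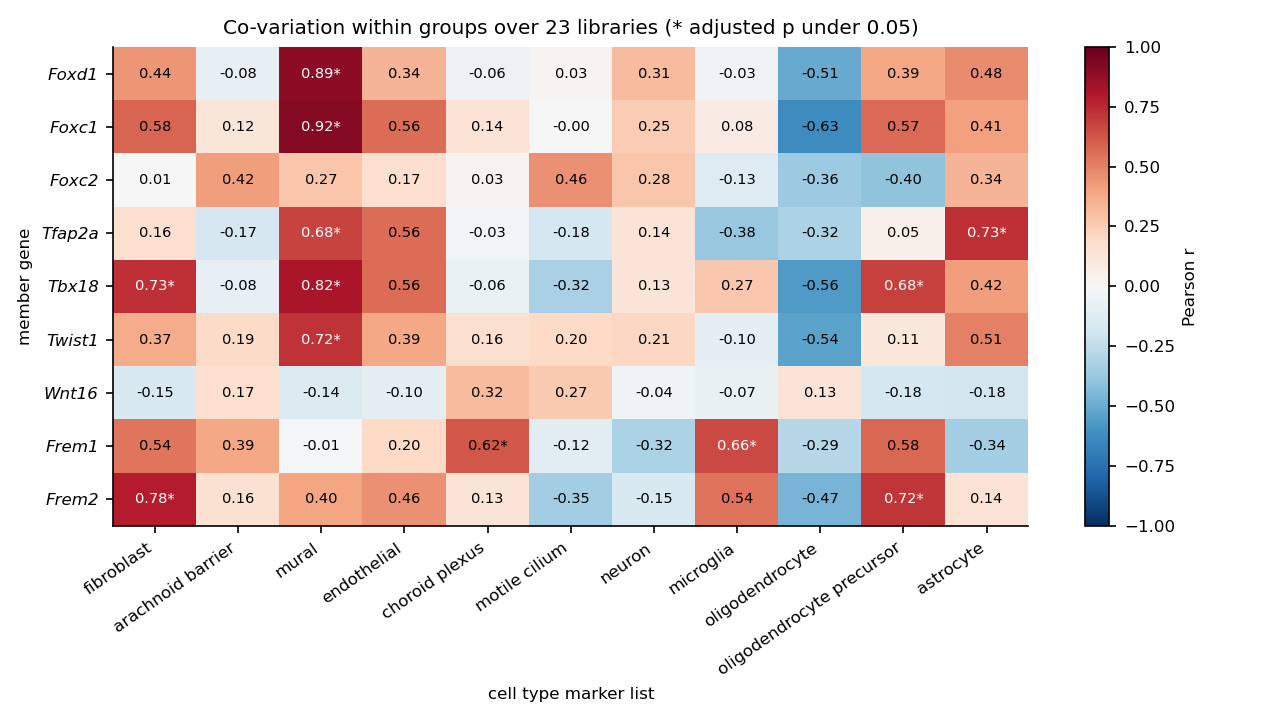
Pearson's r between the deviation of each gene (rows) and of each marker list (columns) from their group means over 23 libraries, on a colour scale from -1 to 1, with a star at adjusted p under 0.05 over the 99 pairs. The 5 stars of the mural column include the highest values, 0.92 for Foxc1 and 0.89 for Foxd1.

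Frem2 and Tbx18 were the genes that passed with the fibroblast markers. Frem2 had r = 0.78 (permutation p = 8e-05, adjusted p = 0.00178; rho 0.74, p = 0.00032) and Tbx18 had r = 0.73 (permutation p = 0.00045, adjusted p = 0.00742; rho 0.72, p = 0.00079). Without the 2 farthest libraries the values were 0.65 and 0.54. Among the numbered libraries Frem2 had r = 0.46 (permutation p = 0.164), so its relation did not hold within that name series, and Tbx18 stood at 0.69. Frem1 passed with choroid plexus markers at r = 0.62 (permutation p = 0.00193, adjusted p = 0.0159), but its rho of 0.47 did not pass, and r was 0.42 without the 2 farthest libraries. Frem1 also passed with microglia markers at r = 0.66 (permutation p = 0.00159, adjusted p = 0.0143), with 0.32 among numbered libraries. Tfap2a passed with astrocyte markers at r = 0.73 (permutation p = 9e-05, adjusted p = 0.00178), and Frem2 and Tbx18 with oligodendrocyte precursor markers at 0.72 and 0.68 (adjusted p = 0.00829 and 0.0132 by permutation). That last list holds Cspg4 and Pdgfra, which pericytes and fibroblasts also express. Centred on group and prefix, r was 0.37 for Frem2 and 0.58 for Tbx18 with the fibroblast markers, 0.53 for Tfap2a with the astrocyte markers, and 0.40 and 0.37 for Frem1 with the choroid plexus and microglia markers, and none passed.

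**Figure D5:**
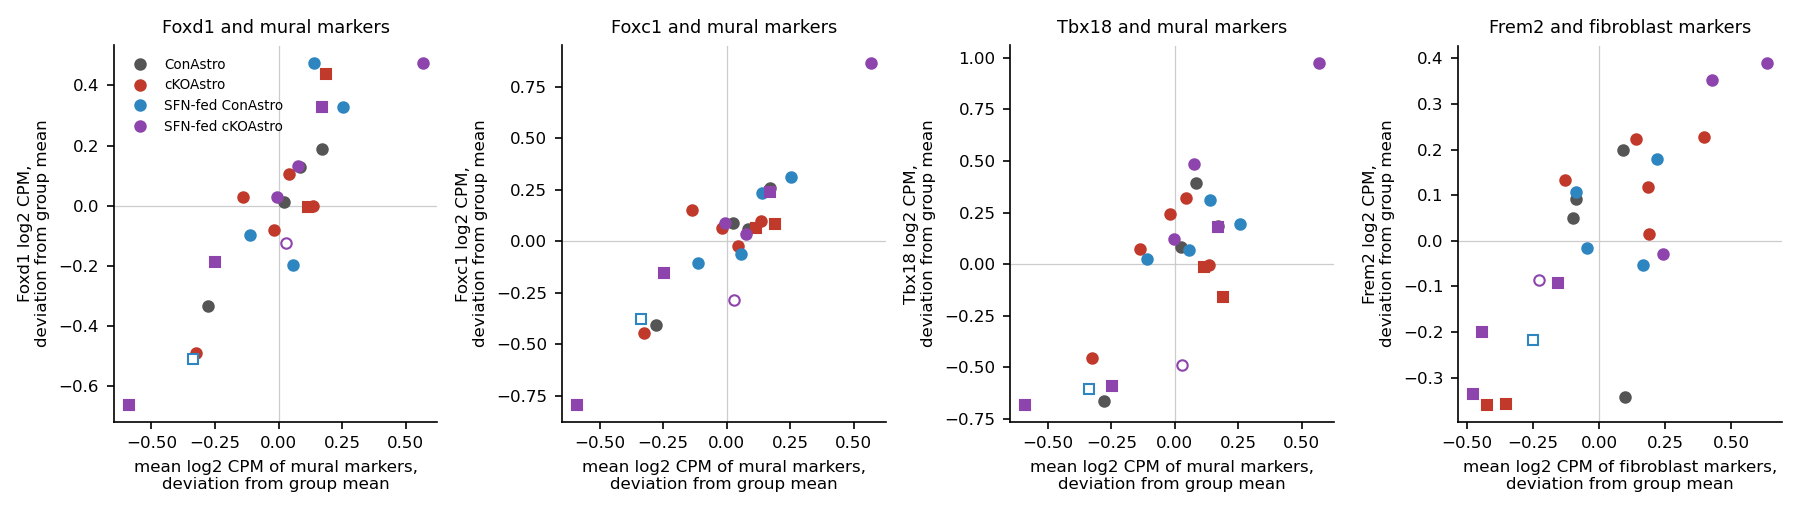
Deviation of log2 CPM from the group mean for Foxd1, Foxc1 and Tbx18 against the mural markers and for Frem2 against the fibroblast markers, 1 point per library (circles, numbered names; squares, Astro names; open, against its label). The points rise together in each panel, and the Astro-named libraries lie at the low end of the Frem2 panel.

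Set against single mural markers, Foxd1, Foxc1 and Tbx18 had higher values with pericyte genes than with contractile genes, a difference that was not tested. Foxd1 had r of 0.86 with Kcnj8, 0.85 with Abcc9, 0.82 with Higd1b and 0.80 with Pdgfrb, all over the 23 centred libraries. It had 0.10 with Acta2, 0.04 with Tagln and 0.26 with Myh11, the smooth muscle genes of the list. Foxc1 had 0.87 with Kcnj8 and 0.88 with Higd1b against 0.04 with Acta2, -0.03 with Tagln and 0.14 with Myh11. Tbx18 had 0.91 for Pdgfrb and 0.92 for Notch3 against -0.24 for Acta2. Not all other members divided this way. Tfap2a had 0.58 with Myh11 and 0.51 with Kcnj8, and Foxc2 had 0.44 with Acta2 and 0.49 with Tagln against -0.19 with Pdgfrb. Twist1 had 0.69 with Abcc9 against 0.16 with Acta2, and Frem2 had 0.67 with Pdgfrb against -0.44 with Acta2. Frem2 had its highest fibroblast values with Dcn at 0.81, Lum at 0.78 and Slc22a6 at 0.76, and -0.21 with Fbln1.

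Among 14180 genes with a mean of at least 1 CPM, the 10 whose centred levels were most like Foxd1 over the 23 libraries were Gprc5c (r = 0.93), Hic1 (0.92), Gper1 (0.91), S1pr3 (0.91), Tbx2 (0.89), Tbxa2r (0.89), Foxc1 (0.88), Nodal (0.88), Anpep (0.86) and Kcnj8 (0.86). The 10 include the receptors Gper1 (estrogen), S1pr3 (sphingosine-1-phosphate) and Tbxa2r (thromboxane), the ligand Nodal and the transcription factors Hic1 and Tbx2. Among the numbered libraries their r with Foxd1 lay between 0.77 for Tbx2 and 0.90 for Hic1. Among the 9 genes themselves, Foxd1, Foxc1 and Tbx18 varied together with r between 0.77 and 0.88, and Frem1 and Frem2 with 0.71. Wnt16 stood apart, with r between -0.27 and 0.25 to each of the others, and Foxc2 had -0.49 with Frem1. All of these share libraries, depth and library name prefixes and are given as descriptions.

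The diet effect averaged over both genotypes was not used to choose the genes and was tested across 17302 genes. None of the 9 passed adjusted p of 0.05 in the quasi-likelihood test of edgeR, as for 0% of genes tested, and 6.14% of all genes had an unadjusted p under 0.05. The lowest p of the 9 was that of Tfap2a, at 0.26 ± 0.14 log2 units (adjusted p = 0.759, edgeR). Foxd1 was at 0.17 ± 0.14 (adjusted p = 0.829, edgeR), and the 9 values ran from -0.23 to 0.37. Without ConAstro replicate 3 or SFN-fed ConAstro replicate 3, Foxd1 was at 0.11 and 0.10. With the library name prefix as a term both changed sign, to -0.27 for Foxd1 and -0.10 for Tfap2a (adjusted p = 0.525 and 0.852, edgeR). DESeq2 also called 0 genes, with 1175 at an unadjusted p under 0.05 against 1063 by edgeR.

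Library names fall in a numbered series (17 libraries) and an Astro series (6 libraries, none in ConAstro), and the difference between them within groups was the other test. It called 1023 genes, or 5.91% of those tested (2.98% lower), and 1 of the 9. Frem2 was 0.40 ± 0.08 log2 units lower in the Astro-named libraries (adjusted p = 0.0211, edgeR). Tbx18 at -0.49 ± 0.19 (adjusted p = 0.124, edgeR) and Frem1 at -0.42 ± 0.19 (adjusted p = 0.189, edgeR) did not pass. Without cKOAstro replicate 2, an Astro-named library, no gene passed and Frem2 was at -0.37 (adjusted p = 0.0782, edgeR). Foxd1 differed by -0.11 ± 0.16 (adjusted p = 0.746, edgeR). Of the 14 fibroblast markers 4 were lower there as well, with Slc22a6 at -1.48, Lum at -1.35, Dcn at -1.18 and Fmod at -0.62 log2 units, and their part in the Frem2 value was not tested.

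Genes that work beside the 9 were read from lists. Of 26 other transcription factors of mesenchyme and meninges, 23 were tested, and Meox1 alone passed in the name series test, at -1.05 ± 0.29 log2 units (adjusted p = 0.0401, edgeR). None passed for diet. On the SFN diet all 22 tested were below 0 between genotypes, with a median of -0.53 and none past the threshold. The libraries against their labels were kept in that fit, and no gene passed there, Aldh7a1 included. Of 17 WNT ligands, Wnt7a at -0.53 ± 0.13 and Wnt7b at -0.38 ± 0.09 were lower in the Astro-named libraries (adjusted p = 0.0262 and 0.0266, edgeR). Both act on brain endothelium, and their levels were 92.9 ± 20.3 and 142.6 ± 23.3 CPM (SD, n = 23), and the median genotype difference of the tested ligands on the SFN diet was 0.03. Of 12 WNT targets and inhibitors, only the receptor Tnfrsf19 passed in that test, at -0.45 ± 0.12 (adjusted p = 0.0401, edgeR). The Fraser partner Fras1 was at 6.79 ± 2.64 CPM and the ligand Npnt at 15.3 ± 4.92 CPM, and none of the 4 tested of 6 passed in either test. Of 10 meningeal signals and retinoic acid genes, Aldh1a2, the retinoic acid enzyme of meningeal fibroblasts, was lower by name series at -1.49 ± 0.26 (adjusted p = 0.018, edgeR) and the growth factor Bmp7 at -0.28 ± 0.08 (adjusted p = 0.0498, edgeR).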

How the data were processed

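The authors aligned paired-end reads of polyadenylated RNA with STAR to mm10 and deposited 1 table of unnormalised read counts by gene symbol and library. Tool versions, the annotation and the strand used in counting are not given in the sources used here. In R 4.3.3, edgeR 4.0.16 (quasi-likelihood) was run on these counts after TMM normalisation and filterByExpr (minimum count 10, minimum total 15), pairs of groups on those groups alone and the interaction, the diet average and the name series on all 4 groups, with Benjamini-Hochberg adjustment over all genes tested and a threshold of 0.05. Log2 CPM carries a prior count of 2, and each SE comes from the fold change and the F statistic of its test. Exon lengths came from GENCODE M21. Alternatives were DESeq2 1.42.0, RLE normalisation, no filter beyond 1 count, a replicate block, all 4 groups in 1 fit, libraries left out, the name series and marker means as covariates. The marker covariates, the library name prefix as a term and the alternatives of the overlap counts were added after the data were seen. The members and gene lists were chosen with earlier results of these data known. Named genes were the 9 members, the 10 genes most like Foxd1, and from each list up to 4 that passed a test or, with none, those with the highest mean CPM. Scripts were tested on simulated data. Libraries of a group differed beyond sampling noise (chi-square per degree of freedom of at least 42.4), so each counted as 1 replicate. The p-values are set against the spread between libraries of a group, each from its own mouse. Unless fitted or left out, library name prefixes and the libraries against their labels are part of that spread. Depth was 46890715 to 391701247 counts per library.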

Additional observations from a re-analysis of the deposited data

Results flagged for a closer look

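In 44 groups of values (9 genes and the summed mural and fibroblast markers, each in 4 groups), 3 had a library apart from the rest of its group by Dixon's 95% criterion, which chance meets in about 1 in 20 groups. Foxc1 was lowest in cKOAstro replicate 5 at 14.0 CPM, where the nearest other library had 18.9 CPM. Wnt16 was highest in cKOAstro replicate 1 at 0.337 CPM, against 0.194 CPM for the next. The summed fibroblast markers were highest in ConAstro replicate 2 at 355 CPM, against 335 CPM for the next.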

How the results depend on the processing

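The marker covariates, chosen after the data were seen, moved the median log2 difference of the 9 genes the most. With the mural mean the SFN difference in ConAstro was 0.18, or 0.25 without the libraries against their labels, the interaction -0.45 or -0.29, and the genotype difference with SFN -0.20 without those libraries. With the fibroblast mean that genotype difference was -0.23 with or without them, and the SFN difference in ConAstro was 0.20. With the library name prefix as a covariate, also added after the data were seen, the median was 0.77 between genotypes on the control diet, 0.20 for SFN in ConAstro and -0.71 for SFN in cKOAstro. Without the libraries against their labels as well, the last 2 were 0.21 and -0.72 and the genotype difference with SFN was -0.0052. The diet average then turned sign for Foxd1 (-0.27, or -0.31 without those libraries) and Tfap2a (-0.10, or -0.23). With each library left out in turn the medians lay at 0.29 to 0.56 and -0.72 to -0.59 between genotypes without and with SFN, 0.58 to 0.84 and -0.44 to -0.33 for SFN in ConAstro and cKOAstro, -1.17 to -0.88 for the interaction, and -0.20 to 0.08 for SFN-fed cKOAstro against ConAstro. Non-overlapping genes numbered 1 to 2, 3 to 4, 3 to 5 and 0 to 1 in the 4 pairs of groups, 2 between genotypes without SFN among numbered libraries, and 5 for SFN in ConAstro both among numbered libraries and without those against their labels. The diet average called 0 genes and 0 of the 9 throughout. The name series test was the least stable: 0 to 2235 genes and 0 to 2 of the 9 with a library left out. It called 0 without cKOAstro replicate 2, 241 and 275 without SFN-fed cKOAstro replicates 5 and 3, 368 and 443 without its replicates 7 and 6, and 517, 536, 605 and 659 without cKOAstro replicates 5, 6, 4 and 3. It called 1952 without SFN-fed ConAstro replicate 1, 2235 without SFN-fed cKOAstro replicate 2, 2992 genes and 2 of the 9 without both, and 2121 by DESeq2. Frem1 passed without SFN-fed ConAstro replicate 1 (-0.68, adjusted p = 0.0301, edgeR) and without both (-0.76, adjusted p = 0.00711, edgeR), and Tbx18 without SFN-fed cKOAstro replicate 2 (adjusted p = 0.0415, edgeR). Of the 99 pairs of gene and list 10 to 18 passed with a library left out, the 18 without cKOAstro replicate 5, 5 among numbered libraries 7 centred on group and name series and 0 centred on group and name prefix. The cause of these changes was not tested.

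Replicate numbers did not pair the libraries, since same-numbered libraries of different groups correlated at -0.22 to 0.34 (29 pairs, 8 over 0.1). With the replicate block the name series test called 0 genes and 0 of the 9 (Frem2 adjusted p = 0.113, edgeR).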
